A study of Mus musculus with 8 samples.

Results

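Cells labelled as an RREB1 knockout were compared with wild-type (WT) cells while both were under TGFβ. The comparison rests on 4 of the 8 libraries of the study, 2 per genotype, and on 12498 of the 18102 genes of the table, those whose normalised read count averaged at least 10 over all 8 libraries. The cells were NMuMG, an established mouse line of mammary gland epithelium. After serum starvation for 6 h they received TGFβ or SB505124, a kinase inhibitor of the TGFβ type I receptor. TGFβ was given at 100 pM for 1.5 h and, in the other 4 libraries, SB505124 at 2.5 µM for 6 h. No group was left untreated, so a difference between treatments mixes agent and exposure time. The knockout columns all carry the code KO1 and the labels name no second knockout line, so the effect of the genotype and the history of that line cannot be told apart. No label tells whether the replicates came from different cultures. The p-values therefore refer only to the spread between replicate libraries, pooled over all 8 libraries and moderated across genes. That spread may be technical. In whole-culture RNA, fewer cells of a kind and less transcript per cell cannot be told apart.

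TGFβ binds a pair of receptor kinases that phosphorylate SMAD2 and SMAD3, which enter the nucleus with SMAD4 and act on genes together with other transcription factors. RREB1 is a zinc-finger transcription factor that responds to RAS signalling and is known as a partner of SMADs at genes of the epithelial-to-mesenchymal transition (EMT) and of fibrosis. In NMuMG cells TGFβ sets off EMT, in which cell junctions are lost and a migratory, matrix-producing state is gained. The comparison asks how the cells under a short TGFβ exposure differ when RREB1 is edited. Libraries held 25144204 to 32143113 reads. Genotypes lay apart on the first principal component, with 76.2% of the variance, and treatments on the second, with 17.4%. Reads of the ribosomal RNA precursor Rn45s made up 1.06% of WT TGFβ replicate 1 and between 0.485% and 0.743% of each other library. The luminal keratin Krt18 stood at 110723 and 118093 in WT and at 107127 and 109683 in KO-labelled libraries and did not pass the test. The epithelial adhesion gene Epcam, however, was low in WT (24.2 and 36.6) and had no read in the KO-labelled libraries.

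The level of the target gene was not lower in KO-labelled cells. Rreb1 (chr13:37778400-37952005) stood at 1959 and 1769 in WT and at 2481 and 2241 in KO-labelled libraries. Both KO-labelled values were the higher ones. The log2 difference was 0.34 ± 0.08 (SE; limma adjusted p = 0.00184), and 0.35 under SB505124. After centring on genes of like exon length the TGFβ value was -0.03 (limma adjusted p = 0.739). Counts summed over a gene do not show an edit that spares the transcript, so these values do not check the label, and the libraries are called KO-labelled throughout.

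The genotypes differed widely. With limma, 7865 genes (62.9% of those tested) passed an adjusted p of 0.05, 4087 higher (32.7%) and 3778 lower (30.2%) in KO-labelled cells. Of these, 1009 were 2-fold or more higher (8.07%) and 1047 were 2-fold or more lower (8.38%). A difference of 8-fold or more was seen in 405 genes, 127 of them higher and 278 lower. The median log2 difference over the tested genes was 0.01, the median of its absolute value 0.38 and its 90th percentile 1.41, beside a median SE of 0.10. The libraries of the 2 groups did not overlap in 7858 of the 7865 called genes. Over all 12498 tested genes, called or not, 5139 did not overlap with KO-labelled higher and 4833 with KO-labelled lower. Lack of overlap was thus common and adds little to a call. Counts of list members below are read against 32.7% higher, 30.2% lower and the median of 0.01.

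**Figure D1:**
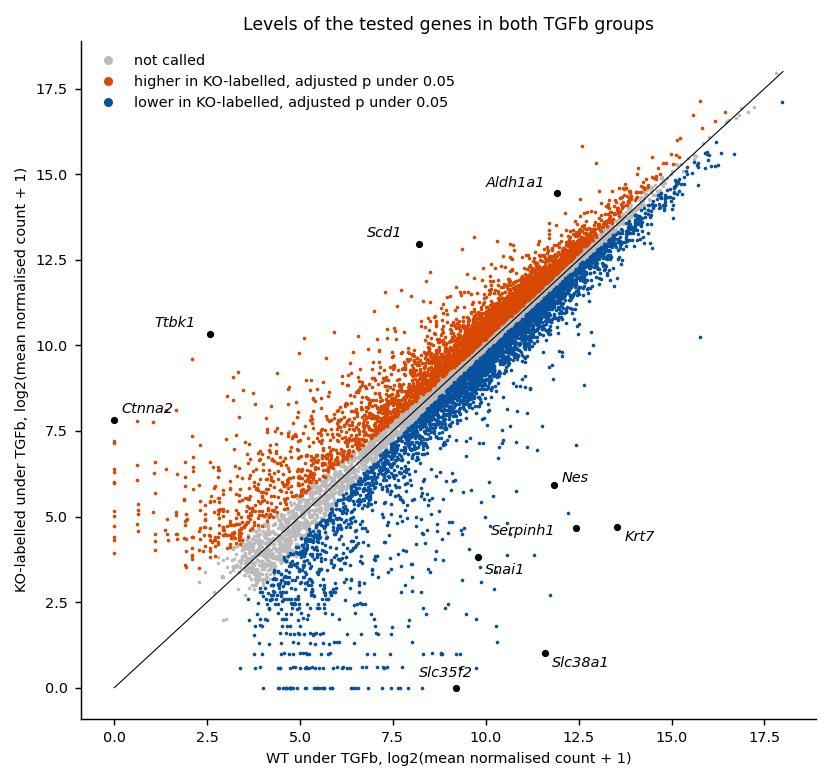
Mean level of each tested gene in WT (x axis) and KO-labelled cells (y axis) under TGFβ, as log2(mean normalised count + 1), with called genes in colour and the line of equal levels. The genes far below the line, with Slc38a1, Krt7, Serpinh1 and Nes among them, outnumber those far above it: 278 were at least 8-fold lower and 127 at least 8-fold higher.

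Of Snai1, Has2, Il11, Skil, Smad7 and Cdh1, Snai1 differed most. It encodes SNAIL, the zinc-finger repressor of E-cadherin that starts EMT, and lies at chr2:167538195-167542814. Its normalised counts were 936 and 826 in WT and 8.66 and 17.4 in KO-labelled libraries. The groups lay far apart, with every WT library high and every KO-labelled one near the floor. The log2 difference was -6.04 ± 0.33 (limma adjusted p = 1.6e-11), a 66.0-fold lower level. Under SB505124, where WT itself held at most 24.3, the difference was -2.66, and the 2 differences were themselves different by -3.39 ± 0.47 (limma adjusted p = 3.1e-04). Has2 (chr15:56665627-56694539), which makes hyaluronan, stood at 50.5 and 38.9 in WT and at 2.89 and 5.13 in KO-labelled libraries. Again no KO-labelled library came near a WT one, and the log2 difference of Has2 was -3.22 ± 0.69 (limma adjusted p = 4.9e-04), or -2.13 with a pseudocount of 8. Under SB505124 neither genotype had more than 1.00, and the difference between treatments for Has2 was -3.16 (limma adjusted p = 0.0903).

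Il11, a cytokine gene of the fibrotic response at chr7:4772373-4782859, went the other way. It stood at 758 and 629 in WT and at 1259 and 1203 in KO-labelled libraries under TGFβ, a log2 difference of 0.83 ± 0.15 (limma adjusted p = 1.1e-04). Under SB505124 it was lower in KO-labelled libraries, 15.8 and 18.1 against 28.4 and 28.0 (-0.70, limma adjusted p = 6.7e-04). So Il11 in KO-labelled libraries was lower than in WT under SB505124 and higher under TGFβ. The difference between treatments was 1.54 ± 0.22 (limma adjusted p = 3.8e-04). The SB505124 values of Il11 rest on 56 reads in WT and 38 in KO-labelled libraries. Skil, which encodes the SMAD co-repressor SnoN, stood at 5573 and 6125 in WT and at 10251 and 9065 in KO-labelled libraries (0.72 ± 0.08, limma adjusted p = 5.1e-07). Smad7, the inhibitory SMAD, stood at 4505 and 4278 against 5099 and 4743, a difference of 0.16 ± 0.08 that did not pass (limma adjusted p = 0.0973). Cdh1, which encodes E-cadherin, stood at 14685 and 13123 in WT and at 26362 and 23441 in KO-labelled libraries (0.84 ± 0.09, limma adjusted p = 1.6e-07), and its groups did not overlap. Under TGFβ, Snai1 was near 0 and Cdh1 high in the KO-labelled libraries. Under SB505124, where Snai1 was low in both genotypes, Cdh1 was also higher in KO-labelled libraries (0.44, limma adjusted p = 3.6e-04). The difference between treatments for Cdh1 was not called (limma adjusted p = 0.0961), and a link between Snai1 and Cdh1 was not tested. Skil was higher under SB505124 as well (0.47).

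**Figure D2:**
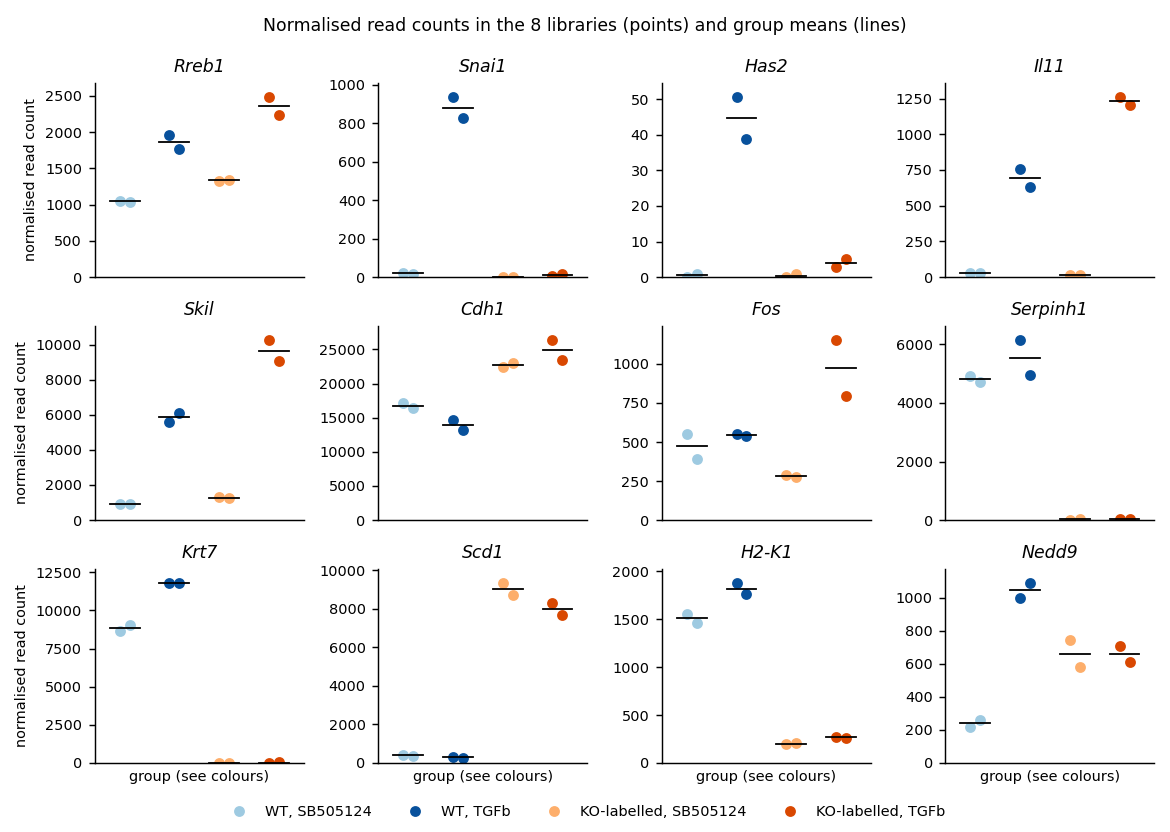
Normalised read counts of 12 genes in each of the 8 libraries (points, 2 per group) with group means (lines); every axis starts at 0. Snai1 and Has2 are high in the WT TGFβ libraries alone, Il11 and Fos are highest in the KO-labelled TGFβ libraries, and Krt7 and Serpinh1 are near 0 in all 4 KO-labelled libraries.

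The sequence before the start of Snai1, Il11 and Serpinh1 is shown because these 3 genes differ in 3 ways: lower mainly under TGFβ, higher under TGFβ, and lower under both treatments. Each run is the 250 bases upstream of the RefSeq start (GRCm38.p6), written 5′ to 3′ on the gene's strand. Capitals mark ACCACCC, letters within the consensus of RREB1, and CAGAC, letters of the SMAD-binding element, on either strand (their reverse complements are GGGTGGT and GTCTG). Snai1 is chr2:167537945-167538194, plus strand; Il11 is chr7:4782858-4783107, minus strand; Serpinh1 is chr7:99353240-99353489, minus strand.
Snai1: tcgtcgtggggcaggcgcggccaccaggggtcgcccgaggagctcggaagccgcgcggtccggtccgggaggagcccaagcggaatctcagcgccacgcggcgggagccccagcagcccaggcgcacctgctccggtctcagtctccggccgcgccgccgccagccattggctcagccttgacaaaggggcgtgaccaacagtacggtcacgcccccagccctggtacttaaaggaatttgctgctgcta
Il11: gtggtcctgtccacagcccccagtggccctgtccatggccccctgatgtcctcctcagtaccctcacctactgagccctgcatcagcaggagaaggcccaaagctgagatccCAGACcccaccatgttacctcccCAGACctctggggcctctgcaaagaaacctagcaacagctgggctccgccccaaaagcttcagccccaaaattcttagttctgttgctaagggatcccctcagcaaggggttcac
Serpinh1: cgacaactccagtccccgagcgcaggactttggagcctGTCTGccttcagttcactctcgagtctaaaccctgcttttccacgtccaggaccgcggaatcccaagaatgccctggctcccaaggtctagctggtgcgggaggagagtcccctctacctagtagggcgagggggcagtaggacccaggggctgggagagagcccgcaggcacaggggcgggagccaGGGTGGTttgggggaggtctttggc
Neither motif was found in the Snai1 window. Il11 held 2 CAGAC, and Serpinh1 held 1 of each motif. ACCACCC occurred in 4.10% of 9784 such windows of tested genes, in 6.08% of those of genes at least 2-fold higher and in 3.76% of those at least 2-fold lower. CAGAC occurred in 40.7%, 43.3% and 42.4%. A match is a run of letters, not a bound site, and these shares were not tested.

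The largest losses were complete or nearly so. Slc38a1 (chr15:96571418-96642913), which encodes a glutamine transporter, stood at 3297 and 2848 in WT and at 0 and 2.05 in KO-labelled libraries, a ratio of 3104 (95% counting interval 859 to 25634). Krt7 (chr15:101411043-101430313), a keratin of simple epithelia, stood at 11806 and 11779 against 22.1 and 27.7, a log2 difference of -8.84 ± 0.14 (limma adjusted p = 3.5e-19). Serpinh1 (chr7:99345376-99353239), the collagen chaperone HSP47, stood at 6148 and 4940 against 19.3 and 29.7 (-7.79 ± 0.16, limma adjusted p = 2.1e-17). All 3 genes were abundant in both WT libraries and close to absent in both KO-labelled ones. The phospholipid flippase gene Atp9a (-9.05), the mitochondrial calcium uptake regulator gene Micu2 (-8.49) and the neural intermediate filament gene Nes (-5.91) were lower as well, with Nes at 3832 and 3444 in WT and at 63.5 and 55.4 in KO-labelled libraries. Slc35f2, a solute carrier gene, had no read in the KO-labelled libraries beside 593 and 587 in WT, so it was at least 396-fold lower. Lmo1 (at least 209-fold) and Evc2 (at least 159-fold) likewise had none.

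With at most 3 reads over the 2 libraries of a group and a mean of at least 100 in the other, 28 genes were silent in KO-labelled and 7 in WT cells under TGFβ. The 28 include the adenylyl cyclase gene Adcy1 (879 and 827 in WT), the membrane traffic genes Mal2 (1200 and 1301) and Mal (163 and 182), and the G protein subunit gene Gnb4 (611 and 655). They also include the signalling adaptor gene Blnk (600 and 656) and the kinase gene Syk (165 and 173), both best known from B cells, and the ephrin receptor gene Ephb3 (231 and 166). The transcription factor genes Foxd1 (465 and 426) and Tbx15 (157 and 166) and the transcriptional cofactor gene Lmo1 (331 and 291) belong to the 28 too. Among the others are Trim47, Plxdc2, Ak4, B3galt1, Dnajc27, Edil3, Gmpr, Gpc4, Gramd1a, Kcnk5, Megf6, Ryr2, Sfmbt2, Sult4a1, Slc38a1, Slc35f2 and Evc2. Each of the 28 was also lower in KO-labelled cells under SB505124, by log2 differences of -11.35 (Slc38a1) to -4.81 (Syk). Evc, chosen here after its values were seen, is the neighbour of Evc2 on chromosome 5, in the opposite orientation and 1604 bases away; both encode proteins of the primary cilium. Evc stood at 766 and 651 in WT and at 4.81 and 2.05 in KO-labelled libraries (-7.39 ± 0.34, limma adjusted p = 1.3e-12), and both neighbours were lower.

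The 7 genes silent in WT and present in KO-labelled cells were Ces1d, Ctnna2, Gsdma, Dach2, Cacng7, Iyd and Satb1. The carboxylesterase gene Ces1d stood at 233 and 222, and Ctnna2, the neural alpha-catenin gene, at 219 and 233 in KO-labelled libraries, with no read of either in WT (at least 139-fold and at least 137-fold higher). The chromatin organiser gene Satb1 stood at 2.11 and 1.14 in WT and at 303 and 251 in KO-labelled libraries (6.75 ± 0.27, limma adjusted p = 1.4e-13). Genes of low but measurable WT level also stood out. The tau kinase gene Ttbk1 stood at 4.21 and 5.71 in WT and at 1365 and 1211 in KO-labelled libraries (7.76 ± 0.33, limma adjusted p = 5.3e-13), and the neuronal ubiquitin hydrolase gene Uchl1 at 12.6 and 5.71 against 552 and 650. Jakmip2 (7.56), Cyp2c70 (6.54), the neurexin gene Nrxn2, Tmem108, Pcnxl2 and Frmd7 complete the 15 largest rises in level, and the last 4 had no read in WT. Of the exon bases of Uchl1, 18.1% overlap a gene on the other strand. Ces1d and Cyp2c70 belong to families of related genes, and whether the counting split reads between relatives was not tested. Their relatives Ces1g (5.31) and Cyp2c65 (4.77), chosen after their values were seen, were also higher.

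Under TGFβ, more of the core TGFβ signalling genes were higher than lower, which did not hold under SB505124. Of 18 receptor, receptor-SMAD and latent-binding genes, 8 were higher and 3 lower (median 0.15, 0.04 to 0.23 over the alternatives). After length centring 6 were higher and 3 lower. With SB505124, 3 were higher and 5 lower (median -0.16). The difference between treatments itself was called in only 2 of the 18, both upward, beside 2.82% of all tested genes. The type I receptor gene Tgfbr1 stood at 4809 and 4372 in WT and at 6937 and 6468 in KO-labelled libraries (0.55 ± 0.08, limma adjusted p = 1.1e-05). Under SB505124 its difference was -0.17, and the difference between treatments was 0.72 (limma adjusted p = 0.00126). Acvr1 (0.47), Smad2 (0.48), Smad4 (0.43) and Smad3 (0.22) were higher, and the type II receptor gene Tgfbr2 did not pass (0.05). The 3 lower members were the latent TGFβ-binding protein genes Ltbp4 (1087 and 728 against 152 and 128, -2.66) and Ltbp1 (-1.31) and the BMP receptor gene Bmpr1a (-0.48). The ligand gene Tgfb1 stood at 3200 and 2742 in WT and at 914 and 883 in KO-labelled libraries (-1.72 ± 0.10, limma adjusted p = 3.8e-11), with no overlap. Smad2 and Smad4 lie on chromosome 18, where the median gene differed by 0.29, and Bmpr1a on chromosome 14, where it differed by -0.58. Tgfbr1 lies on chromosome 4 and differed by 1.26 when each chromosome was centred.

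Of 18 SMAD feedback and co-repressor genes, 6 were higher and 4 lower (median 0.08, -0.00 to 0.13 over the alternatives). Off chromosomes 4 and 14, 6 were higher and 2 lower, and after length centring of all 18, 4 were higher and 5 lower. Beside Skil, the ubiquitin ligase gene Smurf2 was higher (1361 and 1357 against 2028 and 2055, 0.59). Ldlrad4, which restrains SMAD phosphorylation, was lower (197 and 203 against 15.4 and 12.3, -3.77), but 52.1% of its exon bases overlap Fam210a on the other strand and the kit does not mark strand. Spsb1, a receptor-degrading adaptor gene on chromosome 4, was lower by 0.79 ± 0.10 on the log2 scale (limma adjusted p = 9.5e-07), a call lost when each chromosome was centred (limma adjusted p = 0.481). Of 13 ID and BMP pathway genes 4 were higher and 4 lower (7 and 3 after length centring). Id2, an inhibitor of basic helix-loop-helix factors, stood at 3158 and 3510 in WT and at 10814 and 10562 in KO-labelled libraries (1.68 ± 0.08, limma adjusted p = 1.7e-12). The ligand genes Bmp8a (14.7 and 11.4 against 85.7 and 80.0, 2.58) and Bmp2 (631 and 635 against 1113 and 1029, 0.76) were higher too, and the BMP antagonist gene Grem1 was lower (-2.88).

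Genes were also chosen by the TGFβ (1.5 h) minus SB505124 (6 h) difference averaged over both genotypes. That average is orthogonal to the genotype difference, so the choice favours neither genotype. Without untreated libraries, raised and lowered are here against the inhibitor and across unlike exposure times. Of the 508 genes raised at least 2-fold, 139 were higher (27.4%) and 200 lower (39.4%) in KO-labelled cells under TGFβ. Their median was -0.12, and -0.37 under SB505124. Of the 207 lowered at least 2-fold, 109 were higher (52.7%) and 54 lower (26.1%), with a median of 0.51 and of 0.35 under SB505124. Raised genes thus lay on the lower side of the all-gene shares and lowered genes on the higher side. For the raised genes the difference between treatments had a median of 0.19 and was called upward in 77 and downward in 19. For the lowered genes its median was 0.11, with 15 called upward and 10 downward. Over all 12498 tested genes 281 were called upward and 71 downward.

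EMT transcription factors did not move as a block. Of 14 tested, 7 were higher and 5 lower (median 0.41, 0.18 to 0.42 over the alternatives). Beside Snai1, the lower ones were Twist2 (-3.13), Snai2 (157 and 163 against 69.3 and 96.4, -0.96), Hmga2 (-0.41) and Tcf3 (-0.37). The higher ones were Snai3 (160 and 137 against 495 and 571, 1.84), Sox4 (1105 and 1130 against 3372 and 2901, 1.48), Foxq1 (673 and 658 against 1870 and 1741, 1.44), Tcf4 (0.56), Sox9 (0.48), Zeb1 (0.47) and Ets1 (0.36). Zeb1 and Tcf4 lie on chromosome 18, and the Tcf4 call was lost after length centring (limma adjusted p = 0.133). Most exon bases of Sox4 (54.6%) and Foxq1 (66.1%) overlap a gene on the other strand. Zeb2 stood at 624 and 690 against 740 and 577 and did not pass (-0.01). The study is known for Snai1, so this list is not independent evidence.

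Junction genes were mostly higher. Of 16 tight junction genes, 11 were higher and 1 lower (median 0.54, 0.42 to 0.75 over the alternatives; the 1 lower gene, Inadl, lost its call without WT TGFβ replicate 2 and without KO TGFβ replicate 2, and 2 were lower without KO TGFβ replicate 1). The strand protein gene Ocln stood at 399 and 416 in WT and at 1587 and 1415 in KO-labelled libraries (1.88 ± 0.09, limma adjusted p = 3.6e-12). The scaffold genes Tjp1 (6349 and 7018 against 13608 and 11726, 0.92), Cgn (2768 and 2453 against 5085 and 4592, 0.89) and Pard3 (1168 and 1258 against 2328 and 2197, 0.90, or 0.53 after length centring) were higher in both libraries. Of 17 adherens junction and desmosome genes, 10 were higher and 5 lower (median 0.37, 0.26 to 0.40). The catenin genes Ctnnd1 (0.97) and Ctnnb1 (0.83) stood with Cdh1. Desmoplakin, Dsp, stood at 6466 and 6436 against 15990 and 14089 (1.22 ± 0.08, limma adjusted p = 4.0e-10), while the plakophilin genes Pkp1 (217 and 221 against 14.4 and 16.4, -3.74) and Pkp3 (284 and 233 against 51.0 and 35.9, -2.56) were lower. Desmosomal genes thus split by member. Cdh2, which encodes N-cadherin and is usually read as a mesenchymal marker, was higher along with Cdh1 (4171 and 4203 against 10377 and 8774, 1.19).

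Among 9 regulators of epithelial identity, 5 were higher and 1 lower (median 0.51). The ETS factor gene Ehf stood at 139 and 169 in WT and at 3088 and 2892 in KO-labelled libraries (4.28 ± 0.12, limma adjusted p = 1.2e-15). Its relative Elf3 went the other way, 2240 and 2224 against 1409 and 1384 (-0.68), and did not differ past the threshold under SB505124 (0.04). Of 12 keratins and other intermediate filament genes, 4 were higher and 6 lower (median -0.22). Beside Krt7 and Nes, Vim stood at 104038 and 106500 in WT and at 48822 and 50023 in KO-labelled libraries (-1.09 ± 0.10, limma adjusted p = 2.3e-08). The basal keratin genes went opposite ways: Krt5 stood at 2.11 and 3.43 against 70.3 and 70.7 (4.27), while Krt14 went from 46.3 and 37.7 to no read (at least 28.3-fold lower). Of 9 mesenchymal markers, 1 was higher (Cdh2; 2 without WT TGFβ replicate 1 or KO TGFβ replicate 2) and 6 lower (median -0.54, -0.65 to -0.38). The fibronectin receptor subunit gene Itga5 stood at 5671 and 4950 against 1822 and 1688 (-1.59) and the hyaluronan receptor gene Cd44 at 22807 and 21716 against 12272 and 11532 (-0.90). Fn1, which encodes fibronectin, did not pass (0.20).

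Most members of the fibrogenic, plasminogen and serpin, and metalloprotease lists were lower. Of 17 fibrogenic ligands and enzymes, 2 were higher, Il11 and the CCN family gene Wisp1 (1037 and 946 against 2836 and 2485, 1.42), and 12 lower (median -0.40, -0.59 to -0.38). Published work on this system shaped that list, so its direction is not independent evidence. The lower ones included Lif (9305 and 7885 against 4462 and 4402, -0.95), the protease inhibitor gene Timp1 (6553 and 6052 against 2723 and 2908, -1.16) and Ctgf (71242 and 65439 against 40488 and 37060, -0.82), of whose exon bases 23.2% overlap a gene on the other strand. Of 16 genes of the plasminogen activator system and serpins, 1 was higher, Plat (0.22; lost without WT TGFβ replicate 2 and without KO TGFβ replicate 1), and 13 lower (median -0.99, -1.07 to -0.83). The urokinase gene Plau stood at 1392 and 1382 in WT and at 139 and 140 in KO-labelled libraries (-3.30 ± 0.10, limma adjusted p = 4.8e-15). Serpinb2, an inhibitor of urokinase, was lower too (1003 and 1201 against 28.9 and 21.5, -5.40), as was Serpinb9b (7166 and 8025 against 1037 and 1044, -2.86).

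Of 18 metalloprotease, inhibitor and lysyl oxidase genes, 2 were higher (Adam8 0.80, Mmp13 0.32) and 14 lower (median -1.19, -1.32 to -1.05; 9 lower among genes averaging at least 50). Lysyl oxidases cross-link collagen, and Loxl4 stood at 4447 and 3974 in WT and at 842 and 815 in KO-labelled libraries (-2.34 ± 0.08, limma adjusted p = 2.6e-14). Adam12 (1120 and 1026 against 357 and 266, -1.80) and Mmp11 (503 and 426 against 140 and 129, -1.78) were lower in both libraries. Of 28 collagen and matrix glycoprotein genes, 8 were higher and 12 lower (median -0.34, -0.44 to 0.05); 4 were higher without WT TGFβ replicate 2, without KO TGFβ replicate 1 or after length centring. Col6a1 (184 and 157 against 16.4 and 9.23, -3.68), Col7a1 (2369 and 1658 against 486 and 555, -1.93) and Tnc (-4.69) were lower. The basement membrane genes Nid2 (132 and 117 against 772 and 690, 2.55) and Lamb1 (2866 and 2724 against 6760 and 5683, 1.15) were higher. Of 13 integrin genes, 8 were higher (5 without WT TGFβ replicate 2, 3 without KO TGFβ replicate 1) and 4 lower. The collagen receptor subunits Itga1 (145 and 120 against 1277 and 1074, 3.14) and Itga2 (2678 and 2741 against 9011 and 6825, 1.53) were higher, and Itgb7 was lower (415 and 402 against at most 27.7, -3.91). Of 22 SRF, actin and focal adhesion genes 3 were higher and 9 lower (median -0.07, -0.14 to -0.06).

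**Figure D3:**
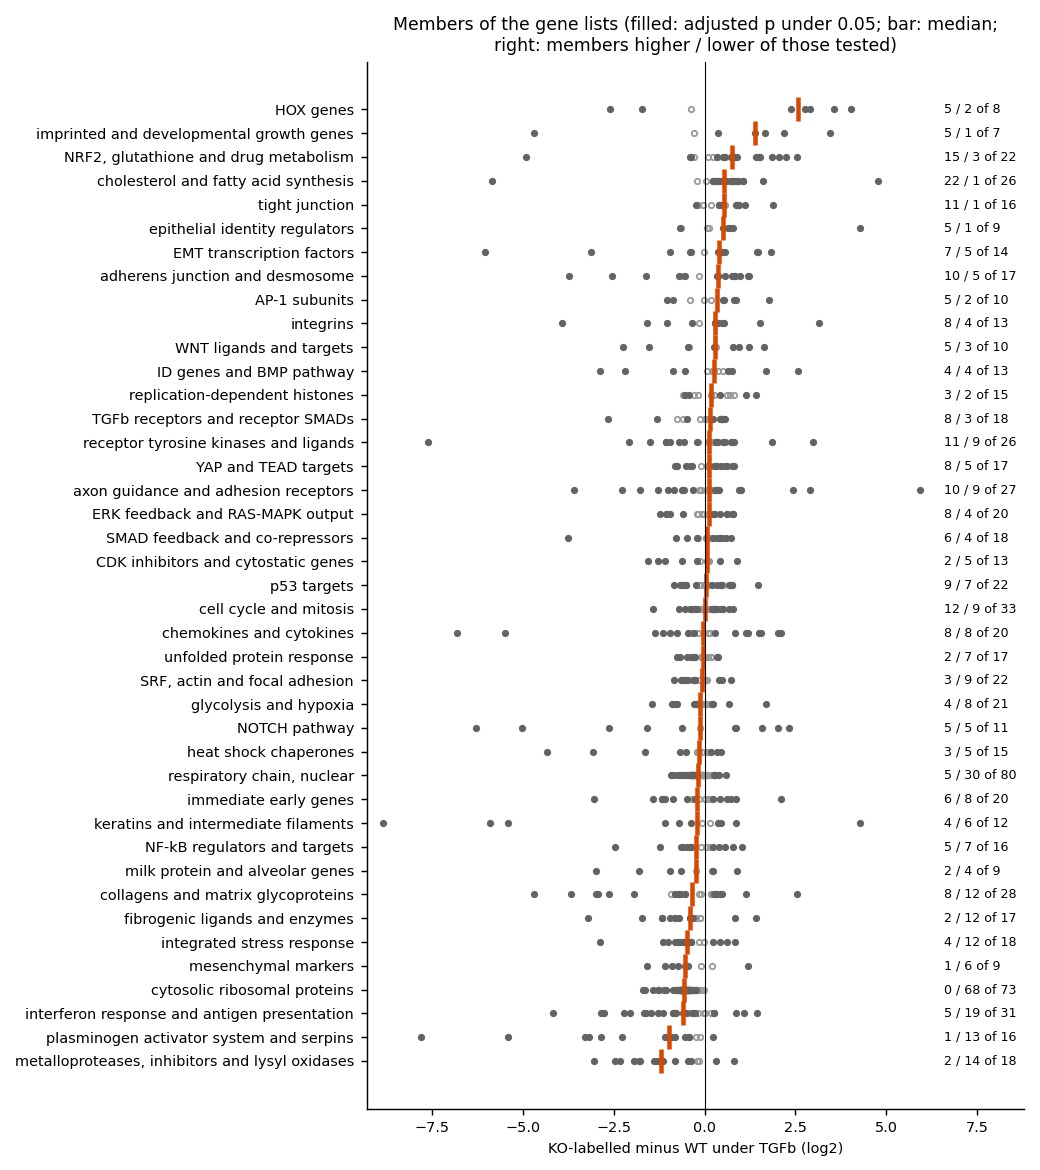
Log2 difference (KO-labelled minus WT under TGFβ) of each tested member of the pathway lists, with medians as bars and counts of higher and lower members at right. Metalloprotease and plasminogen lists lie lowest of those with over 10 members, and the drug metabolism, cholesterol and tight junction lists lie highest.

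AP-1 genes differed between the treatments. AP-1 is the dimer of FOS, JUN and ATF family proteins that growth and stress signals induce within minutes. Of 10 tested subunit genes, 5 were higher and 2 lower under TGFβ (median 0.34, 0.21 to 0.44), against 1 higher and 6 lower under SB505124 (median -0.62); 56.9% of all tested genes were called under SB505124. Fos stood at 551 and 536 in WT and at 1153 and 792 in KO-labelled libraries under TGFβ (0.81 ± 0.16, limma adjusted p = 1.7e-04), and at 551 and 392 against 290 and 275 under SB505124 (-0.72, limma adjusted p = 6.5e-04). Fos was thus the lower of the genotypes under the inhibitor and the higher under TGFβ, and the difference between treatments was 1.53 ± 0.22 (limma adjusted p = 4.4e-04). The difference between treatments was called upward in 6 of the 10 subunit genes, beside 2.82% of all tested genes called in either direction: Fos, Fosb (1.40), Jun (0.84), Fosl2 (0.72), Atf3 (0.62) and Mafk (0.55). Jun, on chromosome 4, was lower under both treatments (-0.87 and -1.71), and its TGFβ call was lost when chromosomes were centred (limma adjusted p = 0.238). Jund stood at 1137 and 872 against 3213 and 3636 (1.78), with 52.6% of its exon bases overlapping a gene on the other strand. Fos, Fosb, Fosl2 and Mafk were named after their values were seen, and the difference shares its libraries with the TGFβ comparison.

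Of 20 immediate early genes, 6 were higher and 8 lower (median -0.21). Rhob was higher (5667 and 5512 against 9163 and 9528, 0.74), while Ier3 (-1.16) and Klf10, a TGFβ-induced repressor gene (4681 and 4705 against 2272 and 2165, -1.08), were lower. Of 20 genes of ERK feedback and RAS-MAPK output, 8 were higher and 4 lower (median 0.12, 0.01 to 0.19; 7 lower with edgeR). The phosphatase genes went opposite ways, Dusp4 higher (1226 and 1134 against 2056 and 1929, 0.76) and Dusp7 lower (1895 and 1751 against 760 and 790, -1.23). Of 26 receptor tyrosine kinases and ligands, 11 were higher and 9 lower (median 0.13, -0.08 to 0.24). Fgfr2, a receptor for fibroblast growth factors, stood at 193 and 176 in WT and at 1517 and 1418 in KO-labelled libraries (2.99 ± 0.10, limma adjusted p = 6.3e-15). Fgfr1 (-2.09), Mst1r (7683 and 6467 against 2506 and 2507, -1.49) and Epha2 (21260 and 17403 against 9768 and 8589, -1.07) were lower; Epha2, on chromosome 4, differed by -0.36 when each chromosome was centred.

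Lipid synthesis genes were higher. Of 26 genes of cholesterol and fatty acid synthesis, 22 were higher and 1 lower (median 0.54, 0.46 to 0.68; 1 or 2 lower), and 19 were higher under SB505124. The fatty acid desaturase gene Scd1 (chr19:44394455-44407879) stood at 327 and 263 in WT and at 8309 and 7674 in KO-labelled libraries (4.76 ± 0.10, limma adjusted p = 1.8e-17). The sterol pathway genes Idi1 (212 and 243 against 723 and 677, 1.62) and Hmgcs1 (3030 and 3406 against 6789 and 6633, 1.06) were higher in both libraries. Of 22 genes of the NRF2 response, glutathione and drug metabolism, 15 were higher and 3 lower (median 0.75, 0.55 to 0.88). The retinal dehydrogenase gene Aldh1a1 stood at 3188 and 4501 against 22053 and 22430 (2.55), and Hmox1, which degrades haem, at 1576 and 1740 against 4510 and 5005 (1.52). Gclc, the limiting enzyme of glutathione synthesis, stood at 2223 and 2279 against 6650 and 6012 (1.49). Aldh3a1 went the other way (-4.91).

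Most genes of the integrated stress response list and of the interferon and antigen presentation list were lower. Of 18 genes of the integrated stress response, 12 were lower and 4 higher (median -0.48, -0.54 to -0.45; 2 higher without WT TGFβ replicate 2 or KO TGFβ replicate 2). Its transcription factor gene Atf4 stood at 10044 and 10653 in WT and at 5730 and 6115 in KO-labelled libraries (-0.81 ± 0.08, limma adjusted p = 6.4e-08), and Trib3 (-1.13) and Nupr1 (-2.87) stood with it, while the amino acid transporter gene Slc3a2 was higher (0.83). Of 31 interferon response and antigen presentation genes, 19 were lower and 5 higher (median -0.59, -0.77 to -0.32); 12 were lower without WT TGFβ replicate 1, and 3 were higher without WT TGFβ replicate 2 or either KO TGFβ replicate. The class I genes H2-K1 (1879 and 1759 against 275 and 261, -2.76) and H2-D1 (1242 and 1214 against 392 and 418, -1.60) were lower, though they are near-identical in part and may share reads. Their light chain gene B2m did not pass (-0.02). Ifit2 was higher (460 and 574 against 1201 and 1003, 1.09), while the RNA sensor genes Ifih1 (-1.48) and Ddx58 (-0.81) were lower. Of 17 genes of the unfolded protein response 2 were higher and 7 lower, and of 15 heat shock genes 3 were higher and 5 lower, among them Cryab, of whose exon bases 17.0% overlap Hspb2 on the other strand (2176 and 2245 against 242 and 279, -3.08) and Hspa1b (-1.63), which has a near-identical copy. No unfolded protein response gene was higher without KO TGFβ replicate 1, and 1 heat shock gene was higher without WT TGFβ replicate 1 or KO TGFβ replicate 1.

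Ribosomal protein genes were lower almost throughout. Of 73 genes of cytosolic ribosomal proteins, 68 were lower and none higher (median -0.56, -0.66 to -0.37; 60 to 69 lower), and 43 were lower under SB505124 (median -0.27). Off chromosomes 4 and 14, 61 were lower (median -0.54). Rpl22 (10283 and 12139 against 3288 and 3590, -1.70), Rps20 (-1.63) and Rpl11 (-1.26), which had the smallest p of those named here, lie on chromosome 4, and centring each chromosome brought them to -0.99, -0.92 and -0.55. Many have processed copies elsewhere in the genome, so their reads may be split. Gene length moved with the comparison: among genes off chromosomes 4 and 14, the fifth with the shortest exon length had 19.7% higher and 36.7% lower (median -0.16), and the fifth with the longest had 57.5% higher and 13.5% lower (median 0.31). Ribosomal protein genes are short (median exon length 1781 bases), and after length centring 60 were lower (median -0.37). Of 80 nuclear genes of the respiratory chain and its assembly, 5 were higher and 30 lower (median -0.17), against 15 higher and 9 lower under SB505124 (median 0.07). After length centring they were 19 higher and 14 lower (median 0.01), and without KO TGFβ replicate 1 there were 15 lower; leaving out WT TGFβ replicate 1, KO TGFβ replicate 1 or KO TGFβ replicate 2 gave 2, 3 and 2 higher. What links exon length to the genotype was not tested.

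Other lists held members on both sides. Of 33 cell cycle and mitosis genes, 12 were higher (7 without WT TGFβ replicate 1, 5 without KO TGFβ replicate 1) and 9 lower, with a median of 0.00. Of 13 CDK inhibitor and cytostatic genes 2 were higher and 5 lower (6 and 4 after length centring), among them Cdkn2a (234 and 224 against 78.9 and 75.9, -1.55) and Cdkn2c (-1.29), both on chromosome 4 (-0.84 and -0.58 when each chromosome was centred). Counts of higher and lower genes were 9 and 7 of 22 p53 targets, 8 and 5 of 17 YAP and TEAD targets, and 5 and 7 of 16 NF-kB genes. They were 4 and 8 of 21 glycolysis and hypoxia genes, 3 and 2 of 15 histone genes, and 2 and 4 of 9 milk protein and alveolar genes. The WNT list had 5 and 3 of 10, with Wnt7a lower (4570 and 3855 against 905 and 870, -2.24) and Wnt7b higher (0.96). The NOTCH list had 5 and 5 of 11, and its median of -0.13 was not stable (-0.31 to 0.85 over the alternatives). Its ligand gene Jag2 was lower (1136 and 697 against 11.6 and 9.23, -6.30) and its receptor gene Notch1 higher (336 and 271 against 1639 and 1413, 2.33). Of 20 chemokine and cytokine genes 8 were higher and 8 lower: Cxcl16, with 18.3% of its exon bases under a gene on the other strand, stood at 1535 and 1521 against 8.66 and 18.5 (-6.80), and Ccl20 at 744 and 736 against 2911 and 3128 (2.03). Of 27 axon guidance genes 10 were higher and 9 lower, with Sema6a (10.5 and 5.71 against 576 and 507, 5.94) and Robo1 (2.89) higher and Sema3f (-2.27) lower. Of 8 HOX genes that passed the filter 5 were higher and 2 lower, and of 7 imprinted and developmental growth genes 5 were higher and 1 lower, with Peg3 at 646 and 657 against 8160 and 6318 (3.46) and Phlda2 lower (-4.69). HOX and imprinted genes of low level were not tested, so these counts do not describe either family. No mitochondrially encoded gene is in the table.

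Leaving out 1 library moved several of these counts by over 1.5 times. Without KO TGFβ replicate 1, higher genes numbered 6 in the axon guidance list, 3 in the imprinted list and 2 in the glycolysis list, and lower genes 4 in the p53 and glycolysis lists and 1 in the histone list. Without WT TGFβ replicate 2 there were 6 higher axon guidance genes, 2 higher and 3 lower glycolysis genes, 2 lower imprinted genes and 1 lower histone gene. Without WT TGFβ replicate 1 there were 4 lower p53 genes and 1 lower histone gene, and without KO TGFβ replicate 2 there were 4 lower glycolysis, 2 lower imprinted and 1 higher milk protein genes.

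Markers of other cell types were few and low. Summed over the list, fibroblast markers were at 514 to 671 in WT and 384 to 420 in KO-labelled libraries (0 of 3 tested higher, 2 lower), leukocyte markers at 589 to 607 and 624 to 737 (1 and 1 of 6), endothelial markers at 407 to 456 and 401 to 403 (0 and 1 of 2), and adipocyte markers at 412 to 517 and 671 to 684 (1 and 2 of 4). Luminal markers were at 223768 to 226585 and 246464 to 252303 (2 and 2 of 7), and basal markers at 541 to 585 and 1918 to 2114 (2 and 1 of 3), the latter mostly through Mylk (514 and 480 against 2039 and 1828). Without 1 TGFβ library the lower calls fell to 1 (fibroblast), 0 (endothelial) and 1 (adipocyte), and the higher leukocyte calls were 0 or 2. The part of these cell types in the comparison was not tested. The leukocyte gene Ptprc stood between 1.05 and 11.6 and the endothelial gene Pecam1 between 0 and 1.93 in the 4 libraries. The fibroblast gene Dcn stood at 58.9 and 38.9 in WT and had no read in KO-labelled libraries (at least 33.1-fold lower). The luminal factor gene Foxa1 was lower (172 and 176 against 8.66 and 11.3).

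Chromosomes 4, 14 and 18 stood apart. On chromosome 4 the median log2 difference was -0.68, a ratio of 0.624, and 582 of 752 genes were lower (77.4%) and 7.58% higher. On chromosome 14 it was -0.58, a ratio of 0.669, with 282 of 401 genes lower (70.3%) and 8.98% higher. On chromosome 18 it was 0.29, with 167 of 319 genes higher (52.4%). The other chromosomes had medians of -0.07 to 0.15. With the genes of a chromosome put in order and cut into 10 equal runs, all 10 runs had a median below 0 on chromosome 4 (-0.89 to -0.52) and on chromosome 14 (-0.84 to -0.42), and all 10 lay above 0 on chromosome 18 (0.12 to 0.48). The medians under SB505124, from libraries that the TGFβ comparison does not use, were -0.69, -0.62 and 0.25. Without chromosomes 4 and 14, 3994 genes were higher and 2914 lower of 11345. DNA copy number was not measured, and its part in these values was not tested. When each chromosome was centred, 8 genes chosen for naming lost their calls: Spsb1, Jun, Slc2a1, Dnaja1, Plin2 and Ndufaf4 on chromosome 4, and Ajuba and Dnajc3 on chromosome 14.

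**Figure D4:**
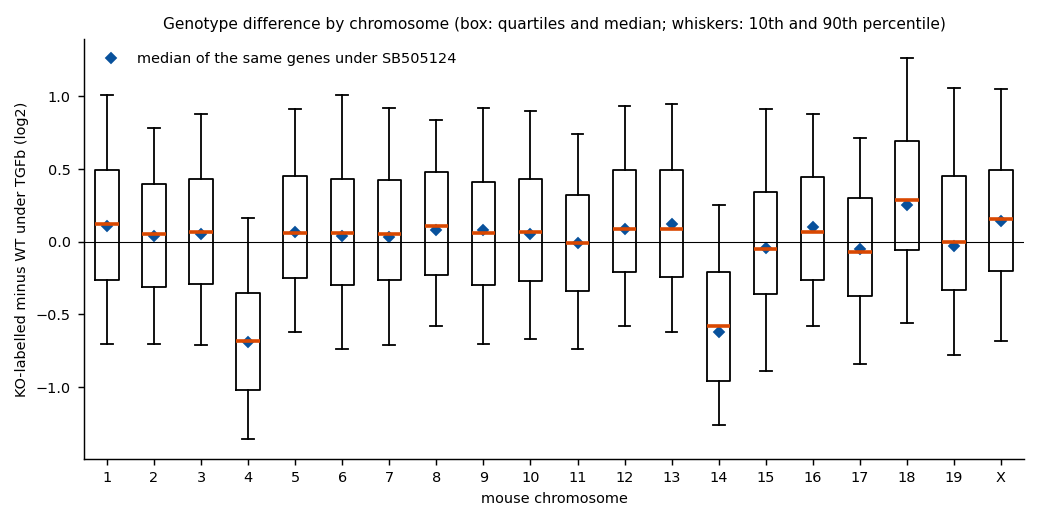
Log2 difference (KO-labelled minus WT under TGFβ) of the tested genes on each chromosome, as boxes of quartiles with whiskers at the 10th and 90th percentiles, and the median of the same genes under SB505124 as diamonds. Chromosomes 4 and 14 lie below the others under both treatments and chromosome 18 above.

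Most genotype differences were also present under the receptor inhibitor as well. Under SB505124 limma called 7117 genes (56.9%), and 6054 genes were called in the same direction under both treatments, which is 77.0% of the TGFβ calls and 85.1% of the SB505124 calls. The 2 comparisons share no library, though they share the cell lines and the fitted variance. Across 12498 genes, which are not independent, the 2 differences had a Pearson r of 0.95 and a Spearman rho of 0.89. Slc38a1, Krt7, Serpinh1, Plau and Scd1 had differences of -11.35, -8.71, -7.87, -3.45 and 4.50 under SB505124, and their difference between treatments was not called. Ehf differed by 5.02 there, more than under TGFβ (difference between treatments -0.74).

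The difference between treatments itself was called in 352 genes (2.82%), 281 upward and 71 downward, and 284 of them were also called under TGFβ. This contrast shares its libraries with the TGFβ comparison, and its count was the least stable: leaving out 1 library gave 1027 without WT TGFβ replicate 1, 150 without KO TGFβ replicate 1, 141 without WT SB505124 replicate 1 and 168 without WT SB505124 replicate 2. In 28 genes the calls under the 2 treatments had opposite directions. Nedd9, an adhesion scaffold gene, stood at 998 and 1089 in WT and at 710 and 613 in KO-labelled libraries under TGFβ (-0.66), but at 220 and 262 against 742 and 582 under SB505124 (1.45). Its values in KO-labelled libraries overlapped between the treatments, and those of WT lay apart. Clec2d was also lower under TGFβ and higher under SB505124 (-0.72, or -0.46 after length centring, and 0.90). So was the folate enzyme gene Aldh1l1 (69.5 and 74.3 against 29.8 and 25.6, -1.35, and 2.44 under SB505124), with its TGFβ call lost without WT TGFβ replicate 1, WT TGFβ replicate 2 or KO TGFβ replicate 2. Onecut3 (0.95 and -1.24) and Il11 were higher under TGFβ and lower under SB505124; the Onecut3 call was lost without WT TGFβ replicate 2 or KO TGFβ replicate 2. Angptl4, a lipoprotein lipase inhibitor gene, stood at 1000 and 890 against 254 and 210 under TGFβ (-2.02) and at 1847 and 1740 against 1378 and 1607 under SB505124 (-0.27). Gde1, a phosphodiesterase gene, stood at 1259 and 1199 against 7.70 and 11.3 under TGFβ (-6.89) and at 849 and 801 against no read under SB505124, a difference between treatments of 2.80 between levels that were low in all 4 KO-labelled libraries.

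**Figure D5:**
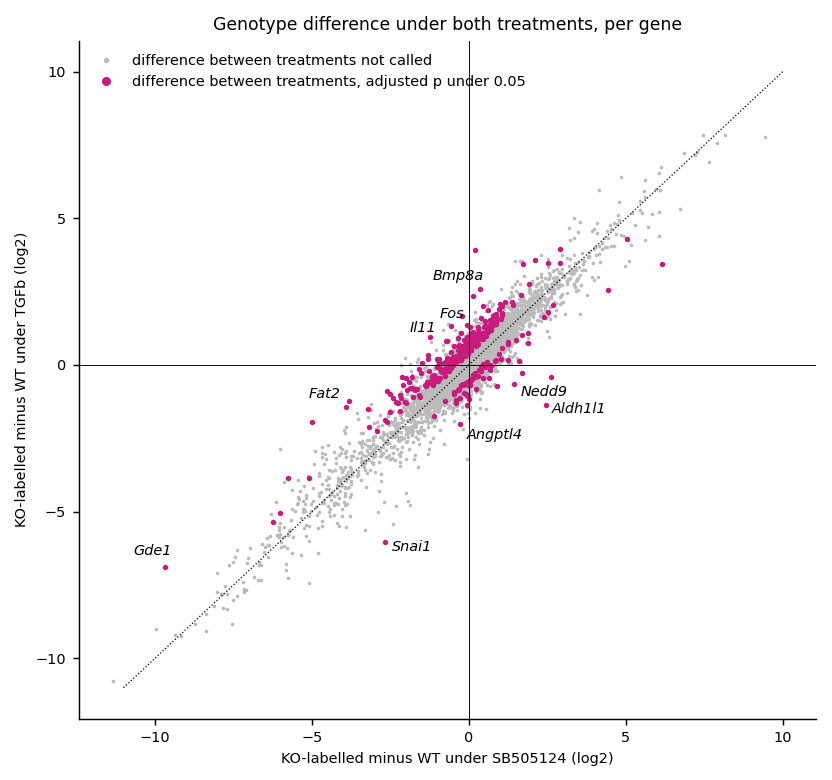
Log2 difference between genotypes under SB505124 (x axis) and under TGFβ (y axis) for each tested gene, with genes whose 2 differences were themselves different in colour and the line of equal differences dotted. Most genes follow the line, Snai1 and Angptl4 lie below it, and Il11, Fos, Bmp8a and Gde1 lie above it.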

How the data were processed

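RNA was measured by sequencing in 8 samples, 2 per genotype and treatment, with Illumina's TruSeq RNA kit, per the labels' protocols; that kit does not mark strand. Per the submitters' processing notes, HTSeq 0.6.1p1, DESeq2 3.4, FastQC 0.11.5 and the build mm10 were used, with no role stated; the aligner is not given in the sources used here. The values deposited by the authors are a normalised signal, read counts divided by a size factor per library: 100% of values gave whole reads within 0.01 reads. A count model was run on those reads as an alternative. Values were tested as log2(value + 1) with limma 3.58.1 (R 4.3.3) on all 8 libraries and 4 group means, for the 12498 of 18102 genes averaging at least 10, with Benjamini-Hochberg adjustment over these genes and a threshold of 0.05. Fold changes on this scale understate those of low genes. Where a group had no read, the fold is a bound against 3 reads over the group, and with 1 to 3 reads a 95% exact interval is given, both for counting error only.

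The members and gene lists were chosen with earlier results of these data known. Genes were named by a rule: 7 genes of the study, the 15 largest differences in each direction among genes averaging at least 50 in the higher group, silent genes, the 4 members of smallest p in each list, the 10 largest in each direction whose difference depended on treatment, and 5 with opposite directions. Other members of a list that are named were named after their values were seen. A few genes that the rule or a list holds are not reported here. Positions are from GENCODE M21 (GRCm38) and promoters from RefSeq (GRCm38.p6). Alternatives were other pseudocounts, filters and scalings, edgeR 4.0.16, DESeq2 1.42.0, a replicate block, centring by chromosome and leaving out each library; centring by exon length (20 bins) was added after seeing the data. The tests were tested on simulated data.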

Additional observations from a re-analysis of the deposited data

Results flagged for a closer look

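The following genes drew attention because the KO-labelled minus WT difference under TGFβ was itself different from that under SB505124 in limma (adjusted p under 0.05); the values are TGFβ minus SB505124, on the log2 scale, and both comparisons enter them. They were among 352 such genes of 12498, all were chosen by the rule for named genes, and the cause was not tested for any. Upward were Il11 (1.54), Spsb1 (1.07), Tgfbr1 (0.72), Id2 (0.91), Bmp8a (2.24), Cdh2 (0.49), Klf5 (0.82), Itga5 (0.90), Itga2 (0.84), Rhob (0.74), Crim1 (0.55), Atf3 (0.62), Jun (0.84), Klf10 (0.68), Dusp4 (0.65), Mst1r (1.72), Wnt7a (0.68), Jag1 (0.60), Notch2 (0.58), Ccl20 (0.63), Bcl3 (0.87), Trib3 (1.28), Vegfa (1.04), Peg3 (0.93), Nrp2 (1.06), Areg (0.59), Gde1 (2.80), Paqr9 (2.59), Fat2 (2.49), Onecut3 (2.20), Dlx3 (1.90), Card14 (1.90), Trpm1 (1.90), Fam65c (1.74). Downward were Snai1 (-3.39), Bmp2 (-1.12), Ehf (-0.74), Elf3 (-0.71), Ctgf (-1.04), Uqcrh (-0.46), Cox7a2l (-0.49), Cox6c (-0.46), Aldh1l1 (-3.78), Nedd9 (-2.11), Cpn1 (-1.88), Angptl4 (-1.76), Clec2d (-1.62), Il15 (-1.30), Csf3 (-1.16), Rnd3 (-1.09). Of these, Il11, Onecut3, Aldh1l1, Nedd9, Clec2d, Rnd3 and Ctgf were called in opposite directions under the 2 treatments.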

How the results depend on the processing

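The count of genes called under TGFβ ranged from 6421 (without KO TGFβ replicate 1) to 8178 (no filter on low values), and the share of calls that were higher from 46.1% (upper quartile factors) to 53.4% (mean of at least 50). Genes at least 2-fold lower numbered 635 with a mean of at least 50 (1047 as reported). Genes whose difference depended on treatment, 352 as reported, numbered 134 with no filter, 47 with no variance trend and 141 to 1027 when 1 library was left out, the extremes being without WT SB505124 replicate 1 and without WT TGFβ replicate 1. The log2 difference changed sign when chromosomes were centred for Smad7 (-0.09), Dnaja1 (0.05) and Plin2 (0.07). It changed sign with exon length centred for Rreb1 (-0.03), Pdgfra (-0.05), Egfl7 (0.06) and Pparg (0.06). Leaving out 1 library gave -0.09 to 0.06 for Egfl7 and -0.23 to 0.12 for Pparg. No value that changed sign passed the test, and the cause was not tested. Of 236 called named genes, 20 lost their call in at least 1 alternative. The difference of replicate 1 minus replicate 2 was correlated between groups across 10953 genes. Over 6 pairs of groups its Pearson r was -0.41 to 0.35, which does not settle whether same-numbered libraries are paired. With a replicate block 7835 genes were called under TGFβ, 7103 under SB505124 and 252 for the difference between treatments. With 2 libraries per group, differences near the SE of 0.10 could not be settled.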
